A study of Mus musculus with 6 samples.

Results

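The Hox genes of mouse fat-derived cells were examined in cultures with and without Ythdf1. The members were all protein-coding genes of the deposited count table named Hoxa, Hoxb, Hoxc or Hoxd with a paralog number, 39 of 53801 genes. This rule goes by name and uses no measured value, but it was set with earlier results of these data known. Of these 39 genes, 28 had enough reads to be tested and 11 did not. Hox genes encode homeodomain transcription factors that lie in 4 clusters, and genes at corresponding places in different clusters form paralog groups. Low paralog numbers are expressed anteriorly in the embryo and high numbers posteriorly and distally. Fibroblasts and adipocyte precursors keep such a pattern in the adult, so that the set of Hox genes expressed in a culture records the body site it was taken from. Posterior members of the Hoxc cluster are well known in subcutaneous inguinal fat.

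The cells came from the stromal vascular fraction, the mixed non-adipocyte cells of a fat depot, of inguinal white adipose tissue. Wild type and Ythdf1 knockout were compared with 3 libraries each, and all 6 cultures had been induced to form adipocytes in vitro for 4 days. Ythdf1 encodes a cytoplasmic reader of N6-methyladenosine in mRNA. The series calls the 3 replicates of each genotype biological, and the labels do not give the age or sex of the mice, whether they were pooled, which part of Ythdf1 was altered or in which cells.

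Totals were 16619605 to 20089138 counts per library. Ythdf1, counted over the whole gene, stood at 43.8 ± 1.16 CPM (counts scaled to the library total, SD, n = 3) in knockout cultures and 61.8 ± 1.34 CPM in wild-type cultures, without overlap. The difference had the direction that the genotype labels give, but reads remained in the knockout, and a count over the whole gene checks the labels only in part. Of 14816 genes tested over the whole table, 44.3% had an adjusted p under 0.05 between the genotypes (edgeR, quasi-likelihood F test), with 22.6% higher and 21.7% lower in the knockout. The genotypes also differed in cell-type markers. Summed adipocyte markers were 16250 to 21720 CPM in the knockout libraries and 3739 to 5717 CPM in the wild-type libraries, with 9 of 9 tested markers higher. Summed fibroblast and progenitor markers were 18360 to 19600 CPM against 38800 to 42110 CPM, with 9 of 12 lower. In bulk RNA, fewer cells of a type and less RNA of a gene per cell cannot be told apart, and this holds for every Hox value below.

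Short sequences from the clusters are shown because 2 of the features that turn up in the results, the Mir196a-1 locus beside Hoxb9 and the Mir196b hairpin inside Hoxa9, encode microRNAs with the same seed, and because that microRNA family is known to cleave the mRNA of Hoxb8, the neighbour of Hoxb9. The mature sequences are from RefSeq (GRCm38.p6), with the seed, bases 2 to 8, in capitals. The first lies at chr11:96265187-96265208 on the plus strand and the second at chr6:52230129-52230150 on the minus strand. They differ by A12C, counted from 1 at the 5′ end, with the base of miR-196a given before that of miR-196b. The third line is the site in the 3′ untranslated region of Hoxb8, in its last exon, at chr11:96284888-96284909 on the plus strand (GRCm38, GENCODE M21), where 21 of 22 bases are complementary to miR-196a. The capital marks the base that is not its Watson-Crick partner, A5G counted from the 5′ end of the microRNA, with the partner before the base found.
mmu-miR-196a-5p: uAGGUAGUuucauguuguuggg
mmu-miR-196b-5p: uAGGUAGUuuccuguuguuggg
Hoxb8 site: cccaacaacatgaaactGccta

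The summed level of the 39 Hox genes was 344.3, 330.4 and 321.8 CPM in knockout libraries 1, 2 and 3. It was 417.4, 387.2 and 422.6 CPM in wild-type libraries 1, 2 and 3. All 3 knockout sums lay below all 3 wild-type sums. The mean sums were 332.2 ± 11.4 CPM in the knockout and 409.1 ± 19.1 CPM in the wild type (SD, n = 3). An exact permutation test of 3 against 3 libraries cannot give a p below 0.1, so no test was put on such sums.

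To compare genes with each other, CPM was divided by the length of the annotated exons in kb. In wild-type cultures the order of these per-length levels was led by Hoxc6 at 27.3 ± 0.804 CPM per kb, then Hoxc10 at 22.6 ± 0.569, Hoxc8 at 16.9 ± 0.615, Hoxb9 at 14.1 ± 1.83 and Hoxc9 at 11.1 ± 0.554 (SD, n = 3). Hoxc6, Hoxc10 and Hoxc8 were separated in every library, whereas the ranges of Hoxc8 and Hoxb9 overlapped. These 5 genes held 55.2% of the summed per-length Hox level. In knockout cultures the order began with Hoxc10 at 19.9 ± 1.04 CPM per kb and Hoxc6 at 18.0 ± 0.999, whose ranges overlapped, followed by Hoxc8 at 14.3 ± 0.701. Hoxb9 stood eighth there at 5.51 ± 0.302 CPM per kb, and its range overlapped those of its neighbours in the order, Hoxb6 and Hoxb8. Hoxa9 was in place 16 in the wild type, at 3.05 ± 0.490 CPM per kb, and in place 11 in the knockout, at 4.68 ± 0.138. The order of the leading genes thus had Hoxc members at the top in both genotypes.

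**Figure D1:**
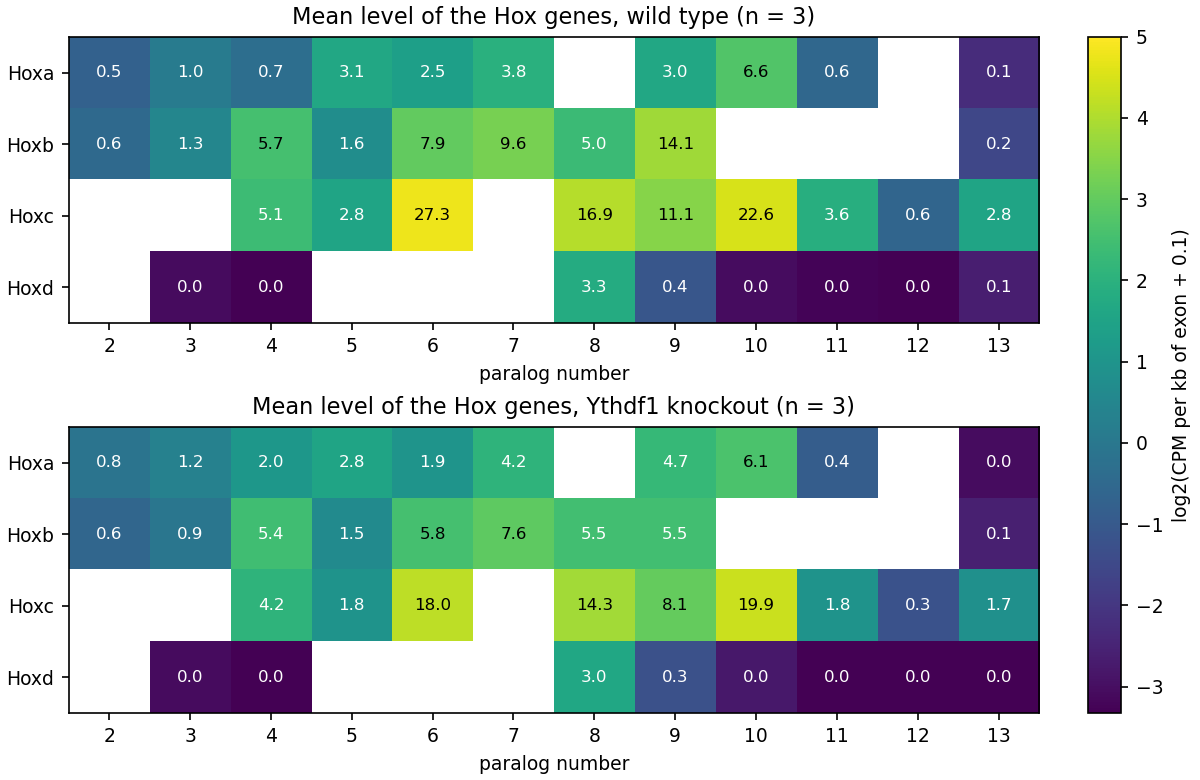
Mean per-length level of the Hox genes of paralog groups 2 to 13 by cluster (rows) and paralog number (columns) in wild-type (top) and Ythdf1 knockout cultures (bottom), 3 libraries each; colour is log2(CPM per kb of exon + 0.1), the printed number is CPM per kb, and white cells have no gene. The brightest cells are Hoxc6, Hoxc8 and Hoxc10 in both panels, and Hoxb9 is 14.1 in the wild type and 5.51 in the knockout.

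By cluster, Hoxc held 55.7% ± 1.04 of the summed per-length Hox level in the wild type and 53.2% ± 1.72 in the knockout (SD, n = 3). Hoxb held 27.7% ± 1.25 and 24.8% ± 1.34, and Hoxd 2.30% ± 0.166 and 2.55% ± 0.259. Hoxa held 14.3% ± 0.693 in the wild type and 19.5% ± 0.662 in the knockout. The Hoxa share was 14.1%, 13.7% and 15.1% in wild-type libraries 1, 2 and 3 and 19.5%, 20.2% and 18.9% in knockout libraries 1, 2 and 3. The Hoxa and Hoxb shares did not overlap between the genotypes, whereas the Hoxc and Hoxd shares did. A share also depends on the levels of the other clusters. The summed Hoxa level overlapped, at 75.6 to 85.9 CPM in the knockout and 64.9 to 78.2 CPM in the wild type. The summed Hoxc level did not, at 161.1 to 169.3 CPM in the knockout and 213.0 to 226.7 CPM in the wild type.

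Among the 28 tested Hox genes, 2 rose and 9 fell in the knockout, and 17 did not pass. The share that passed, 39.3%, was close to the 44.3% of all genes tested. The share that fell was 32.1% against 21.7% of all genes, and the share that rose was 7.14% against 22.6%. The median log2 fold change of knockout over wild type was -0.23 over the tested Hox genes and 0.01 over all genes tested. Estimates lay below 0 for 22 genes and above 0 for 6. The count that fell was 5 of 28 when wild-type replicate 3 was left out. That share was no larger than the 19.8% of all genes that fell under the same setting. The count was 6 without knockout replicate 1 and 9 without knockout replicate 3, where 16.9% and 21.6% of all genes tested fell. Of the 11 genes that passed, 6 passed under every one of 16 other settings, namely Hoxa4, Hoxa9, Hoxb9, Hoxc6, Hoxc9 and Hoxc11. The other 5, Hoxb3, Hoxb6, Hoxc5, Hoxc8 and Hoxc13, lost the call under at least 1 setting.

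**Figure D2:**
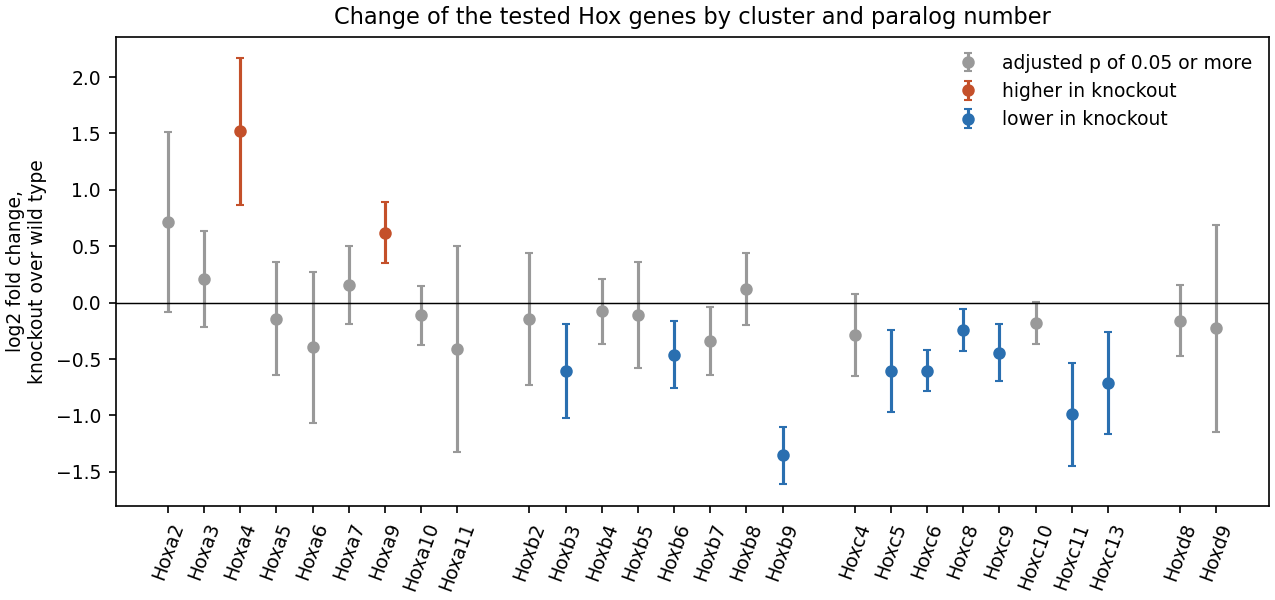
Log2 fold change of knockout over wild type for tested Hox genes, ordered by cluster and paralog number, with 95% confidence intervals from edgeR; colours mark an adjusted p under 0.05 in either direction. The 2 genes that rose, Hoxa4 and Hoxa9, are in the Hoxa cluster, Hoxb9 is the lowest point at -1.36, and all 8 Hoxc estimates are below 0.

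The Hoxa cluster (chromosome 6, GRCm38, minus strand) has 11 genes, of which 10 were tested, 2 rose and none fell. The share that rose, 20%, was near the 22.6% of all genes tested. Hoxa9, a posterior member that is also known as a leukaemia oncogene, lies at chr6:52223100-52231089. It was measured at 26.6, 26.6 and 25.2 CPM in knockout libraries 1, 2 and 3 and at 15.04, 15.8 and 20.1 CPM in wild-type libraries 1, 2 and 3. All 3 knockout values were above the highest wild-type value, and wild-type replicate 3 was nearest to them. Hoxa9 rose by a log2 fold change of 0.62 ± 0.12 (SE), a fold of 1.54 (95% interval 1.27 to 1.86), with adjusted p = 0.00178. The estimate ran from 0.54 to 0.76 over the other settings.

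Hoxa4, an anterior member with a role in cervical vertebra identity, lies at chr6:52189671-52191753. It was counted 46, 74 and 62 times in knockout libraries 1, 2 and 3 and 19, 18 and 21 times in wild-type libraries 1, 2 and 3. The corresponding levels were 2.53, 4.21 and 3.02 CPM and 1.07, 1.11 and 1.2 CPM. The groups were apart, and the knockout libraries spread more widely than the wild-type libraries. Hoxa4 rose by a log2 fold change of 1.52 ± 0.30 (SE), a fold of 2.86 (95% interval 1.83 to 4.49), with adjusted p = 0.00155. Of its exon bases, 16% are shared with the antisense gene Gm29430, which had 3 to 8 counts per library. Read strand in the counting is not given in the sources used here, so that reads of that stretch cannot be assigned to either strand.

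Hoxa2, which patterns the hindbrain and the second pharyngeal arch, was measured at 1.59, 1.25 and 1.56 CPM in knockout libraries 1, 2 and 3 and at 0.679, 0.742 and 1.26 CPM in wild-type libraries 1, 2 and 3. The ranges overlapped by wild-type replicate 3 alone, and the gene did not pass (log2 fold change 0.71 ± 0.36, adjusted p = 0.135). Hoxa10, the Hoxa member with the highest per-length level and a regulator of uterine and lumbar development, was measured at 22.1, 20.6 and 17.4 CPM in the knockout and 23.6, 20.7 and 20.6 CPM in the wild type. Its groups overlapped (fold 0.926, 95% interval 0.772 to 1.11, adjusted p = 0.486). Hoxa3, Hoxa5, Hoxa6, Hoxa7 and Hoxa11 had log2 fold changes from -0.41 to 0.21 and adjusted p from 0.320 to 0.653. Hoxa6 values were all lower in the knockout, but at 1.64 ± 0.486 CPM against 2.16 ± 0.0115 CPM the difference did not pass. Thus Hoxa9 rose while its neighbour Hoxa10 did not pass.

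The Hoxb cluster (chr11:96194316-96368256, plus strand) has 10 genes, of which 8 were tested, none rose and 3 fell, 37.5% against 21.7% of all genes tested. The count that fell was 1 without wild-type replicate 3, where 19.8% of all genes tested fell. Hoxb9, which acts in thoracic rib and limb position, lies at chr11:96271457-96276595 and shares no exon bases with another annotated gene. It was measured at 15.01, 13.5 and 14.1 CPM in knockout libraries 1, 2 and 3 and at 41.7, 32.9 and 34.2 CPM in wild-type libraries 1, 2 and 3. Every wild-type value was far above every knockout value, and wild-type replicate 1 was the highest. Hoxb9 fell by 1.36 ± 0.12 (SE) on the log2 scale, to a fold of 0.391 of the wild type (95% interval 0.327 to 0.467), with adjusted p = 5.03e-06. It had the smallest p of all Hox genes, and its log2 fold change lay between -1.42 and -1.25 over the other settings.

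Hoxb6 (chr11:96292476-96301569), a trunk member with effects on blood and limb progenitors, was measured at 11.99, 10.97 and 10.96 CPM in knockout libraries 1, 2 and 3 and at 16.6, 13.1 and 16.9 CPM in wild-type libraries 1, 2 and 3. The groups did not overlap, with wild-type replicate 2 nearest to the knockout. Hoxb6 fell by 0.46 ± 0.14 (SE) on the log2 scale (fold 0.727, 95% interval 0.590 to 0.894, adjusted p = 0.0168). The call was lost without wild-type replicate 1 (adjusted p = 0.062) and without wild-type replicate 3 (adjusted p = 0.0647).

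Hoxb3 (chr11:96323326-96347930), a hindbrain patterning gene, was measured at 3.74, 3.75 and 3.51 CPM in knockout libraries 1, 2 and 3 and at 5.77, 4.88 and 6.06 CPM in wild-type libraries 1, 2 and 3. Hoxb3 fell by 0.60 ± 0.19 (SE) on the log2 scale (fold 0.658, adjusted p = 0.022), without overlap of the groups. With libraries left out in turn, the call was lost without knockout replicate 1 (adjusted p = 0.0585), without wild-type replicate 1 (0.0646) and without wild-type replicate 3 (0.0712). Of its exon bases, 52.9% are shared with the antisense gene Hoxb3os, so that part of its count may belong to that gene. Hoxb3os did not pass (0.750 CPM in the knockout and 1.304 CPM in the wild type, adjusted p = 0.0847).

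Hoxb7, a homeodomain factor of the trunk and the Hoxb gene with the highest per-length level among those that did not pass, was measured at 13.03, 12.2 and 10.1 CPM in the knockout and 15.4, 15.4 and 13.7 CPM in the wild type. The groups were separate, but the difference missed the threshold (log2 fold change -0.34 ± 0.14, adjusted p = 0.0619). Hoxb8, a regulator of blood progenitors and of the nervous system, was measured at 16.2, 15 and 12.2 CPM in the knockout and 13.9, 11.6 and 14.3 CPM in the wild type. Its ranges overlapped widely (fold 1.09, 95% interval 0.872 to 1.36, adjusted p = 0.533). Hoxb2, Hoxb4 and Hoxb5 had log2 fold changes from -0.14 to -0.08 and adjusted p from 0.668 to 0.713. Between Hoxb9, which fell most, and Hoxb8, whose start lies 10.4 kb from that of Hoxb9, the estimates differed in sign.

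**Figure D3:**
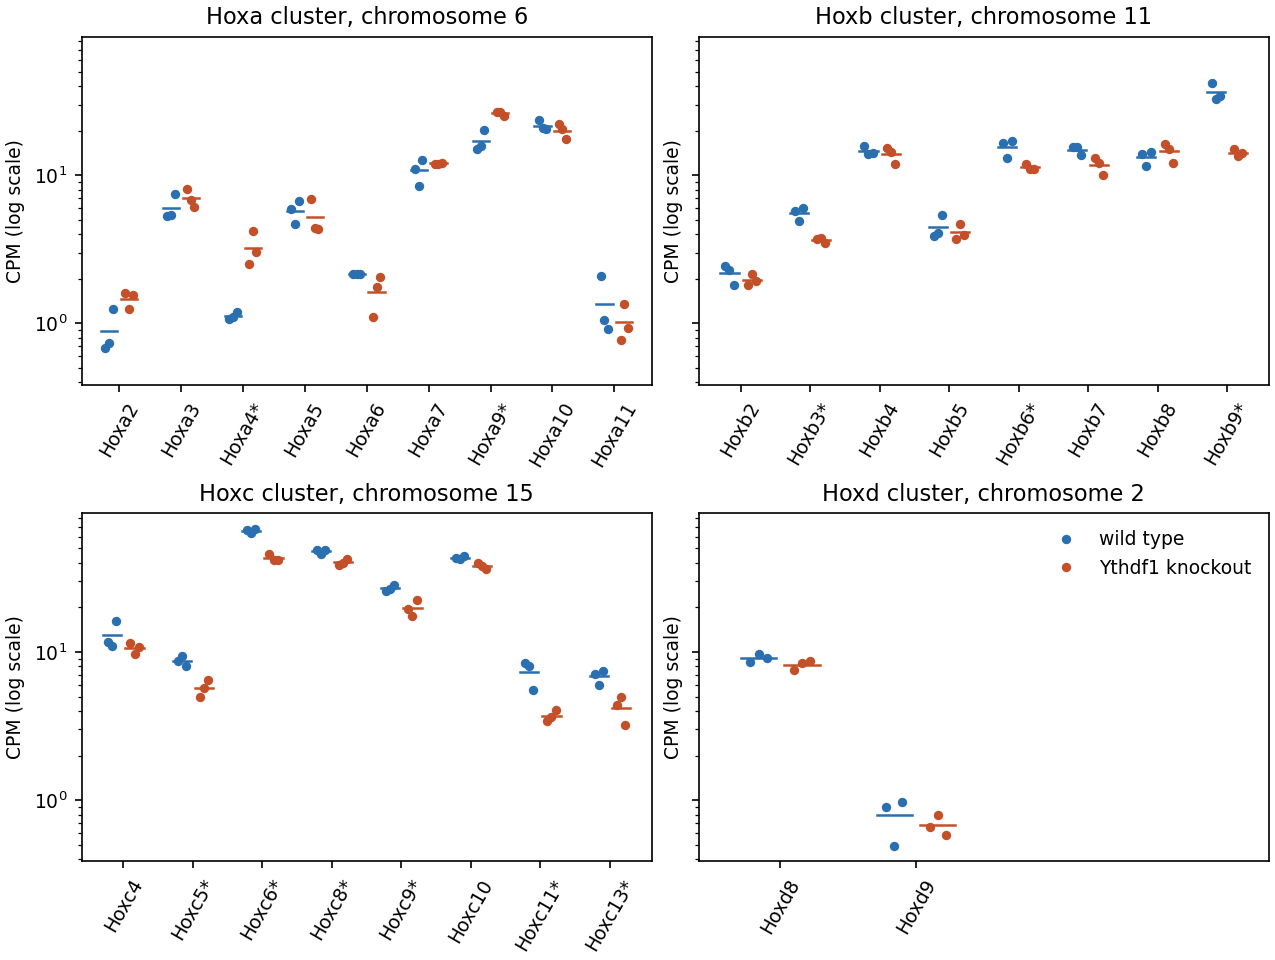
CPM on a log axis of tested Hox genes in each library, with 1 panel per cluster; points are libraries, bars are group means (n = 3), blue is wild type, orange is Ythdf1 knockout, and an asterisk marks an adjusted p under 0.05. Hoxb9 points are at 13.5 to 15.01 CPM in the knockout and 32.9 to 41.7 CPM in the wild type, while Hoxa9 points are higher in the knockout.

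The fall seen in Hoxb9 extended to the noncoding genes on its 5′ side. Gm53, a long intergenic noncoding RNA gene at chr11:96251105-96264868 on the same strand, ends at -6.59 kb relative to the start of Hoxb9. It was counted 182, 195 and 168 times in knockout libraries 1, 2 and 3 and 535, 380 and 395 times in wild-type libraries 1, 2 and 3. The groups were far apart. Gm53 fell by 1.39 ± 0.15 (SE) on the log2 scale (9.76 ± 1.46 CPM against 25.4 ± 4.20 CPM, adjusted p = 2.82e-05). The Mir196a-1 locus, at chr11:96265164-96265265, had 8, 17 and 13 counts in the knockout and 30, 31 and 52 counts in the wild type. It fell by 1.69 ± 0.39 (SE) on the log2 scale (adjusted p = 0.00468), with every knockout count below every wild-type count. These libraries were made for long RNA, so that reads at the locus count the transcript that covers the hairpin and not the mature microRNA shown above. The strand setting and the handling of neighbouring transcripts are not given, so that reads of an unannotated transcript running through Gm53, the hairpin and Hoxb9 could not be told apart from reads of separate genes.

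**Figure D4:**
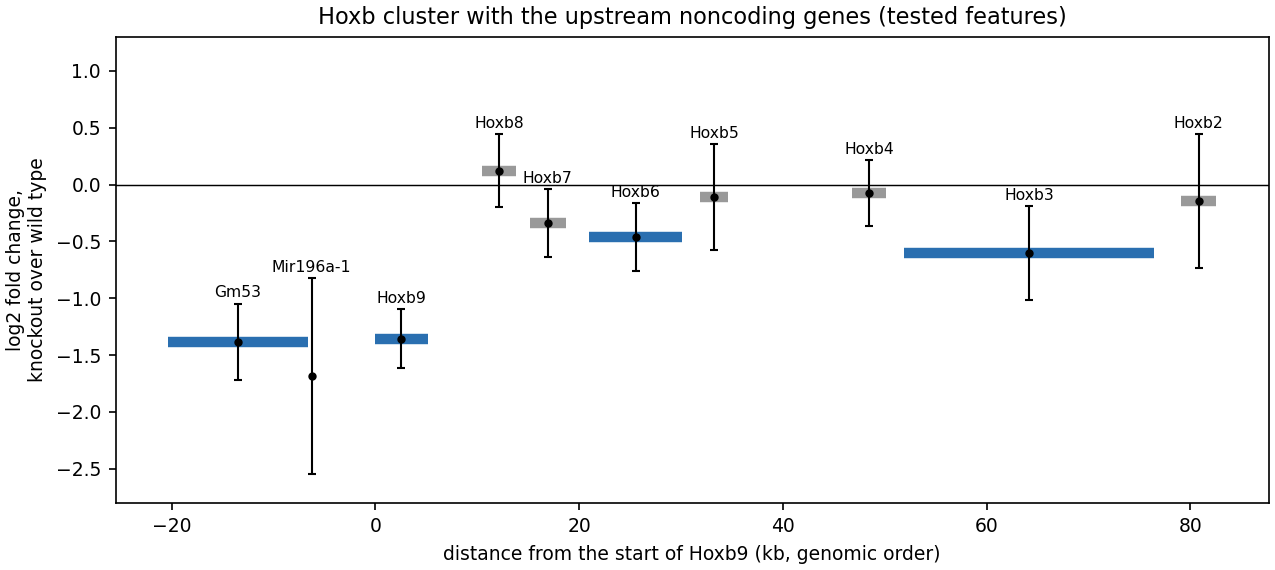
Log2 fold change of knockout over wild type for tested Hoxb genes, Gm53 and Mir196a-1, placed by distance in kb from the start of Hoxb9; thick bars show the gene's extent (blue for those that fell, grey for those that did not pass), points are estimates and thin bars are 95% confidence intervals. Gm53, Mir196a-1 and Hoxb9 lie between -1.69 and -1.36, and Hoxb8, next on the right, is at 0.12.

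Ratios of raw counts within a library, which do not depend on the scaling of libraries, were computed for pairs of genes chosen after their values were seen and are given as description. The Hoxb9 count divided by the Hoxb8 count was 0.925, 0.898 and 1.16 in knockout libraries 1, 2 and 3 and 2.996, 2.85 and 2.39 in wild-type libraries 1, 2 and 3. The Hoxa9 count divided by the Hoxa10 count was 1.204, 1.29 and 1.45 in the knockout and 0.638, 0.764 and 0.978 in the wild type. Neither ratio overlapped between the genotypes. The Gm53 count divided by the Hoxb9 count was 0.667, 0.823 and 0.581 in the knockout and 0.726, 0.713 and 0.659 in the wild type, which overlapped. Within paralog group 9, the Hoxa9 count divided by the Hoxb9 count was 1.77, 1.98 and 1.79 in the knockout and 0.361, 0.480 and 0.588 in the wild type, without overlap. These are ratios of raw counts of genes with different exon lengths, and per length Hoxb9 was above Hoxa9 in the knockout too, at 5.51 against 4.68 CPM per kb. That order depends on the joined lengths of all annotated exons, 2574 bases for Hoxb9 and 5580 for Hoxa9. Which transcript forms were expressed was not examined.

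**Figure D5:**
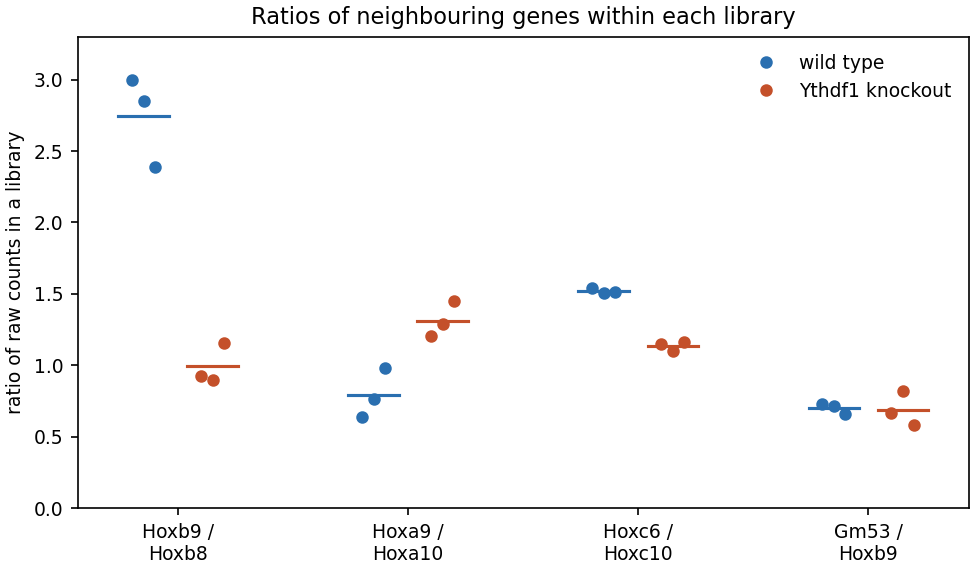
Ratio of the raw counts of 2 genes within each library (vertical axis, no unit) for 4 pairs; points are libraries, bars are group means (n = 3), blue is wild type and orange is Ythdf1 knockout. Hoxb9 over Hoxb8 is 0.898 to 1.16 in the knockout and 2.39 to 2.996 in the wild type, while Gm53 over Hoxb9 overlaps.

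The Hoxc cluster (chr15:102921103-103036852, plus strand) has 9 genes, of which 8 were tested. None rose and 6 fell, 75.0% against 21.7% of all genes tested, and all 8 estimates were below 0, with a median log2 fold change of -0.52. The number that fell was 4 to 6 when any 1 library was left out. The summed level of the cluster was 169.3, 161.1 and 167.9 CPM in knockout libraries 1, 2 and 3 and 220.7, 213.0 and 226.7 CPM in wild-type libraries 1, 2 and 3, without overlap.

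Hoxc6 (chr15:102998257-103011881), a thoracic member that is also active in mammary and skin mesenchyme, had the highest per-length level of all Hox genes in the wild type. It was measured at 46.0, 41.7 and 42.0 CPM in knockout libraries 1, 2 and 3 and at 66.4, 63.6 and 67.3 CPM in wild-type libraries 1, 2 and 3. The groups were far apart and each was tight. Hoxc6 fell by 0.60 ± 0.08 (SE) on the log2 scale (fold 0.658, 95% interval 0.580 to 0.745, adjusted p = 0.000132).

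Hoxc11 (chr15:102954427-102957708), a hindlimb and kidney patterning gene, was measured at 3.41, 3.64 and 4.04 CPM in knockout libraries 1, 2 and 3 and at 8.43, 8.09 and 5.54 CPM in wild-type libraries 1, 2 and 3. The groups were apart, with wild-type replicate 3 well under the other wild-type libraries. Hoxc11 fell by 0.99 ± 0.21 (SE) on the log2 scale (fold 0.504, 95% interval 0.368 to 0.691, adjusted p = 0.00246). Hoxc9 (chr15:102976439-102985099), a thoracic gene that sets motor neuron columns, was measured at 19.6, 17.4 and 22.3 CPM in knockout libraries 1, 2 and 3 and at 25.7, 26.7 and 28.3 CPM in wild-type libraries 1, 2 and 3. Hoxc9 fell by 0.44 ± 0.11 (SE) on the log2 scale (fold 0.736, 95% interval 0.618 to 0.875, adjusted p = 0.00826), without overlap of the groups.

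Hoxc5, Hoxc8 and Hoxc13 also fell. Hoxc13, a regulator of hair and nail keratins, was at 4.21 ± 0.907 CPM in the knockout and 6.87 ± 0.779 CPM in the wild type (adjusted p = 0.0151, and 0.056 without wild-type replicate 3). Hoxc5 was at 5.70 ± 0.767 CPM and 8.70 ± 0.727 CPM (adjusted p = 0.0116, 0.0555 without knockout replicate 1 and 0.057 without wild-type replicate 2), and 5.4% of its exon bases are shared with Hoxc10. Hoxc8, a lower thoracic gene, was at 40.4 ± 1.99 CPM and 47.7 ± 1.74 CPM (adjusted p = 0.0363), and it lost the call under 8 of 16 settings, with an adjusted p of up to 0.147. The calls for Hoxc6, Hoxc9 and Hoxc11 were lost under none of these settings.

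Hoxc10, the posterior member best known from subcutaneous fat, had the highest per-length level of the Hoxc genes that did not pass. It was measured at 40.1, 38.0 and 36.2 CPM in knockout libraries 1, 2 and 3 and at 43.0, 42.3 and 44.4 CPM in wild-type libraries 1, 2 and 3. The groups did not overlap, but the difference was small and missed the threshold (fold 0.880, 95% interval 0.774 to 1.001, adjusted p = 0.0995). Hoxc4 overlapped between the genotypes, at 10.7 ± 0.948 CPM against 13 ± 2.88 CPM (adjusted p = 0.187).

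In the Hoxd cluster (chr2:74668310-74765142, plus strand), which is best known for limb and digit patterning, 2 of 9 genes had enough reads and neither passed. Hoxd8 was measured at 7.53, 8.41 and 8.63 CPM in knockout libraries 1, 2 and 3 and at 8.60, 9.76 and 9.14 CPM in wild-type libraries 1, 2 and 3. Its ranges overlapped at their edges (log2 fold change -0.16 ± 0.14, adjusted p = 0.392). Hoxd9, a limb and lumbar gene, was measured at 0.660, 0.795 and 0.585 CPM in the knockout and 0.905, 0.494 and 0.972 CPM in the wild type, with broad overlap (adjusted p = 0.694). The cluster's most abundant noncoding gene, Hoxd3os1, was counted 26, 33 and 38 times in the knockout and 12, 6 and 17 times in the wild type. It rose by a log2 fold change of 1.33 ± 0.39 (SE, adjusted p = 0.0164), and the call was lost without wild-type replicate 2 (adjusted p = 0.0677). Its annotated strand is opposite to that of Hoxd3, which had at most 4 counts in a library.

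Of the 11 untested members, Hoxb1, Hoxd1, Hoxd4 and Hoxd12 had 0 counts in all 6 libraries. A count of 0 allows up to 3 counts, which corresponds to 0.146 to 0.185 CPM, and this limit covers counting error only. The other 7 had at most 19 counts in a library. Hoxb13, a hindgut, tail and prostate gene, had 1, 4 and 3 counts in the knockout and 7, 10 and 10 counts in the wild type. Hoxa13, a distal limb and hindgut gene, had 2, 0 and 1 counts against 4, 3 and 7 counts. Hoxd13, a digit gene, had 0 counts in every knockout library against 3, 1 and 4 counts. These 3 genes did not overlap between the genotypes but were too low for a fold. Hoxc12 had 8, 5 and 6 counts against 19, 4 and 7 counts, Hoxd3 and Hoxd10 had at most 4 and 5 counts, and Hoxd11 had a single count, in the wild type.

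Counted by groups not overlapping rather than by the test, 2 of the 28 tested Hox genes lay wholly above and 12 wholly below the wild type. Over all genes tested, 27.9% lay wholly above and 27.3% wholly below, 55.2% in all. By position along the clusters, paralogs 1 to 4 had 1 gene that rose and 1 that fell of 8 tested, with a median log2 fold change of -0.11. Paralogs 5 to 8 had none that rose and 4 that fell of 11, with a median of -0.24. Paralogs 9 to 13 had 1 that rose and 4 that fell of 9, with a median of -0.41. The shares that passed were 25%, 36.4% and 55.6% in this order, against 44.3% of all genes tested, and no test compared the positions. Position and cluster were not separated. The 4 that fell in paralogs 5 to 8 were Hoxb6, Hoxc5, Hoxc6 and Hoxc8, and the 4 in paralogs 9 to 13 were Hoxb9, Hoxc9, Hoxc11 and Hoxc13. Summed levels were 45.7 CPM in the knockout and 47.9 CPM in the wild type for paralogs 1 to 4, 158.1 and 198.2 CPM for paralogs 5 to 8, and 128.4 and 163.0 CPM for paralogs 9 to 13. Members of the same paralog group did not all move alike: in group 9, Hoxa9 rose, Hoxb9 and Hoxc9 fell and Hoxd9 did not pass.

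The seed match of miR-196, ACTACCT on the transcript strand, was searched in the annotated 3′ untranslated regions. It was present in 9 of 39 Hox genes (23.1%) and in 6.6% of 21039 protein-coding genes. Of those 9, 2 rose, 2 fell, 4 did not pass and 1 was not tested, and they included Hoxa4, Hoxa9, Hoxb6 and Hoxc8. A match is a description of the letters only. Hoxb8 lacks this perfect seed match because of the A5G position in the site printed above.

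Around the protein-coding genes, 46 noncoding genes were annotated within 5 kb of the clusters, and 10 had enough reads. Of these 10, 1 rose and 2 fell, and 21 of the 46 had 0 counts. The share that passed was 30%, below the 44.3% of all genes tested. The share that rose was 10% against 22.6%, and the share that fell was 20% against 21.7%. The most abundant in the Hoxa cluster was Hotairm1, an antisense transcript known from myeloid cells, at 2.03 ± 0.725 CPM in the knockout and 2.29 ± 0.330 CPM in the wild type (adjusted p = 0.683). Hotair, the long RNA known from the posterior Hoxc cluster, had 4, 2 and 6 counts in the knockout and 9, 4 and 2 counts in the wild type and was not tested. No count of the neighbouring RNAs other than those of Gm53, Mir196a-1 and Hoxd3os1 passed the test.

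Hox proteins bind DNA with partners of the TALE class, the Pbx, Meis and Pknox homeodomain proteins. Of 9 such genes, all tested, none rose and 3 fell, with a median log2 fold change of -0.31. The share that passed was 33.3%, below the 44.3% of all genes tested. By direction, 33.3% fell against 21.7% of all genes, and none rose against 22.6%, and no test compared them. Pknox2 was measured at 18.6, 18.2 and 20.1 CPM in knockout libraries 1, 2 and 3 and at 31.4, 29.0 and 29.1 CPM in wild-type libraries 1, 2 and 3. Pknox2 fell by 0.65 ± 0.10 (SE) on the log2 scale (adjusted p = 0.000268), with the groups far apart. Pbx3 fell from 13.6 ± 1.14 CPM in the wild type to 7.12 ± 1.26 CPM (adjusted p = 0.00066), and 6 of the 9 genes did not pass.

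Polycomb complexes silence Hox clusters and trithorax-group proteins keep them active. Among 12 genes of Polycomb complex PRC2, 2 rose and 1 fell, with a median log2 fold change of -0.11. Jarid2, which targets PRC2 to chromatin, rose from 21.7 ± 0.863 CPM in the wild type to 44.1 ± 2.92 CPM (adjusted p = 6.99e-06), Suz12, a core subunit, rose from 45.4 ± 2.45 to 53.3 ± 1.24 CPM (adjusted p = 0.0391), and Phf19, an accessory subunit, fell from 2.98 ± 0.742 to 1.45 ± 0.244 CPM (adjusted p = 0.0132). Among 21 genes of PRC1, 4 rose and 5 fell (median 0.00). They included the ubiquitin ligase Rnf2, which fell by 0.52 on the log2 scale (adjusted p = 0.000637), and Pcgf3, which fell by 0.43 (adjusted p = 0.00103). Among 14 trithorax-group, H3K27 demethylase and associated genes, 1 rose and 2 fell (median 0.00). Dot1l, the H3K79 methyltransferase, rose by a log2 fold change of 0.96 (adjusted p = 5.68e-05), Psip1 fell by 0.56 (adjusted p = 0.000586) and Mllt1 fell by 0.34 (adjusted p = 0.0126). The shares that passed were 25% for PRC2, 42.9% for PRC1 and 21.4% for the trithorax group, each below the 44.3% of all genes tested, and none of these 3 lists moved in a single direction.

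Retinoic acid is a known inducer of Hox transcription. Of 18 genes of its synthesis, binding and receptors, 14 were tested, 2 rose and 8 fell, with a median log2 fold change of -0.46. The shares were 14.3% higher and 57.1% lower, against 22.6% and 21.7% of all genes tested, and no test compared them. Aldh1a2, an enzyme that makes retinoic acid, was measured at 2.20, 2.33 and 3.51 CPM in knockout libraries 1, 2 and 3 and at 41.2, 41.3 and 39.3 CPM in wild-type libraries 1, 2 and 3. The groups were apart by more than the spread within either, and Aldh1a2 fell by 3.91 ± 0.16 (SE) on the log2 scale (adjusted p = 9.99e-08). The receptor gene Rxrg rose from 1.52 ± 0.508 to 7.003 ± 1.55 CPM (adjusted p = 6.89e-05).

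Cdx and Evx genes and their relatives, homeobox genes related to or linked with the Hox clusters, were all untested, and 7 of these 11 had 0 counts in all libraries. Cdx1, an intestinal and posterior regulator, had 0, 1 and 0 counts in the knockout and 17, 12 and 7 counts in the wild type. Cdx2, which acts in the same tissues, had 0 counts in each knockout library and 4, 7 and 7 counts in the wild type. Of 63 other transcription factors with regional expression, 40 were tested, 2 rose and 16 fell, with a median log2 fold change of -0.35. Tbx15, a marker of some subcutaneous fat and trunk mesenchyme, fell from 98.8 ± 5.57 to 62.6 ± 1.98 CPM (adjusted p = 5.96e-05), Tbx18 from 48.0 ± 0.519 to 20.4 ± 3.66 CPM (adjusted p = 1.06e-05) and Nr2f2, a venous and mesenchymal nuclear receptor gene, from 61.8 ± 6.60 to 29.9 ± 4.92 CPM (adjusted p = 4.75e-05). The share of this list that passed, 45%, was near the 44.3% of all genes tested. By direction, 40% fell against 21.7% of all genes and 5% rose against 22.6%, and no test compared them.

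Markers of some other cell types differed between the genotypes, while the sums of lymphocyte, mesothelial and skeletal muscle markers overlapped. Over all genes tested, 22.6% were higher and 21.7% lower in the knockout. Macrophage markers summed to 285.1 to 773.3 CPM in the knockout, highest in replicate 3, and 89.5 to 162.5 CPM in the wild type, with 8 of 10 higher and none lower. Intestinal epithelium markers, of a tissue that the labels do not name, summed to 62.2 to 78.2 CPM in the knockout and 113.4 to 131.0 CPM in the wild type, with 10 of 12 tested lower. The sums understate the falls of most members, since the tested markers had a median log2 fold change of -3.88, from -8.39 to 0.34. Agr2 and Cdx2 had 0 counts in every knockout library, and Agr2 had 36 to 42 counts in the wild type. Smooth muscle and pericyte markers summed to 186.4 to 233.8 CPM against 684.8 to 988.0 CPM, with 6 of 8 lower and 1 higher. Endothelial markers summed to 33.1 to 40.6 CPM against 25.9 to 32.5 CPM, with 2 of 7 higher, and lymphocyte markers to 0.660 to 1.85 CPM against 0.494 to 1.02 CPM, with none of 8 tested. Schwann cell and neuron markers summed to 17.8 to 27.1 CPM against 32.0 to 41.9 CPM, with 2 of 3 tested lower and 1 higher. Mammary and skin epithelium markers summed to 1.65 to 3.92 CPM against 8.99 to 11.4 CPM, with 1 of 2 tested lower. Mesothelial markers summed to 7.70 to 9.38 CPM against 8.03 to 12 CPM, also with 1 of 2 tested lower. Skeletal muscle markers summed to 1.70 to 5.26 CPM against 3.49 to 10.7 CPM, and neither of the 2 tested passed. The part of these cells, and of the shift from progenitor to adipocyte markers, in the Hox differences was not tested.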

How the data were processed

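RNA of 6 libraries (3 Ythdf1 knockout, 3 wild type) was depleted of ribosomal RNA and read as pairs of 150 bp, per the labels' protocols. The authors deposited raw counts per Ensembl gene. STAR and featureCounts were used with mm10/GRCm38, per the submitters' processing notes, with versions, annotation, strand and overlap settings not given in the sources used here. Because of this, counts of the 16 Hox genes that share exon bases with another gene are uncertain. Symbols and lengths came from GENCODE M21 (53706 of 53801 identifiers), and microRNA sequences from RefSeq.

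The genotypes were compared by edgeR 4.0.16 under R 4.3.3 (filterByExpr with minimum count 10 and minimum total 15, TMM factors 0.975 to 1.02, legacy robust quasi-likelihood F test, 2-sided, Benjamini-Hochberg adjustment over all 14816 genes kept, threshold 0.05). CPM is relative to the scaled totals of the genes kept. The fit was tested on simulated data. Alternatives included DESeq2 1.42.0 and limma-voom (limma 3.58.1). In each cluster, values per library were written for the 3 tested members with the smallest p and the member with the highest per-length level that did not pass. Hoxb8, Hotair, Cdx1, Cdx2 and the untested members were also given. Of each list, the 3 members with the smallest p were named where they passed, except that some genes counted in the totals are not reported here. The members and lists were chosen with earlier results of these data known. Between replicates of a genotype the chi-square per degree of freedom of the counts was at least 9.30, so that they differed by more than sampling noise.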

Additional observations from a re-analysis of the deposited data

How the results depend on the processing

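Over 16 alternatives (DESeq2, RLE and upper-quartile factors, other low-count filters, limma-voom, a replicate block, a covariate for the ending of the library names, protein-coding genes alone, another edgeR setting and each library left out), 2 Hox genes rose in each, or 3 with limma-voom (Hoxa2 added), and no called Hox gene reversed. The number that fell was 5 to 9 with 1 library left out, against 9 in the main analysis. It was 5 of 28 without wild-type replicate 3, a share no larger than the 19.8% of all genes that fell there. For the Hoxb cluster that number was 1 to 4, with 1 without wild-type replicate 3, against 3. With upper-quartile factors, under which the median of all genes was -0.05 on the log2 scale, 11 Hox genes fell (Hoxb7 and Hoxc10 added). Deviations of same-numbered libraries from their group means correlated at -0.126, 0.0117 and -0.143, and those of other pairs at -0.0516 to 0.153. These values showed no pairing by replicate number, but 3 libraries per genotype are too few to exclude it. With the replicate block 7 Hox genes fell and 2 rose, with Hoxb3 (adjusted p = 0.0503) and Hoxc8 (0.0654) no longer called. Dividing by exon bases not shared with other genes moved the per-length wild-type level of 7 genes, such as Hoxb3 (2.78 CPM per kb) and Hoxc10 (24.8 CPM per kb), without changing the 6 leading genes. Depth limits the 11 untested members, for which a difference was not detectable or not tested.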
